A study of Mus musculus with 3 samples.

Results

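Klhl6 is 1 of the 32286 genes counted in single cells of injured mouse airspaces. It was picked because its summed level in migratory dendritic cells was far lower in both the WT_GW5074 and the KO_DMSO library than in the WT_DMSO library. Its values in that contrast, and the values of the same cells split into states, are therefore descriptions of what chose the gene and carry no test. Klhl6 in the other cell classes and the levels of its relatives and partners were not part of that choice. The rankings of genes detected beside it or most like it drew partly on those migratory dendritic cells. To that extent they reuse values that chose the gene. The gene lists and classes were, however, chosen with earlier results of these data known, so their values are descriptions too.

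KLHL6 belongs to the BTB-Kelch proteins, which serve as substrate adaptors of Cullin-3 ubiquitin ligases: the BTB domain docks onto Cullin-3 and the Kelch repeats hold the protein to be marked with ubiquitin. The gene is best known from B lymphocytes, where mice need it for signalling through the B cell receptor and for germinal centres, and it is mutated in human B cell lymphomas. Roquin-2, an RNA-binding protein encoded by Rc3h2 that speeds the decay of the messenger of the NF-kappaB inhibitor A20 (Tnfaip3), is a substrate described in human lymphoma cells.

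The WT_GW5074 mice were wild type and received GW5074, a small molecule. The KO_DMSO mice lacked Clec7a, which encodes the fungal glucan receptor Dectin-1, and received the solvent DMSO. The WT_DMSO mice were wild type and received DMSO. All 3 groups had been given bleomycin through the airway to injure the lung and were lavaged on day 14. The lavage of each group was pooled, cells with CD11b or CD11c on their surface were sorted, and 1 droplet library of the transcripts' 3′ ends was made per group. The number, age and sex of the mice, the kind of knockout allele and the dose of GW5074 are not given in the sources used here. Genotype or treatment, pool and library thus cannot be told apart, no test between groups is possible, and all intervals are exact 95% intervals that cover counting error only.

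After filtering, the libraries held 17792 cells for WT_GW5074, 11642 for KO_DMSO and 13454 for WT_DMSO, with median depths of 2276, 2937 and 2438.5 unique molecular identifiers (UMIs) per cell. Clec7a stood at 743 CPM (the UMIs of a gene scaled to a common total of all UMIs of the class) in WT_GW5074, 11.9 in KO_DMSO and 664 in WT_DMSO monocyte-derived macrophages, so that the library labelled as the knockout held the lowest level. The libraries shared 80 to 154 cell barcodes in pairs, at most 1.02% of a library. Each cell was put in a class by the markers it held, and 30629 of 42888 cells (71.4%) found a class. A class name below means cells with the markers of that class, as in neutrophil-like. The composition differed: neutrophils made up 0.854% of WT_GW5074, 1.93% of KO_DMSO and 22.0% of WT_DMSO cells. The neutrophil transcripts S100a8 and S100a9 together came to 365, 439 and 5206 CPM of the whole libraries, in the same order.

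Klhl6 (ENSMUSG00000043008) is a protein-coding gene on the minus strand at chr16:19946496-19983037 of GRCm38, the mouse build also called mm10. Its annotated exons number 7, it encodes 619 amino acids and its 3′ UTR spans 498 bases. No other annotated gene overlaps it. Because UMIs were counted at transcript ends, levels of different genes are given as CPM without a correction for length.

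Over whole libraries Klhl6 had 2557 UMIs in 2240 cells of WT_GW5074, 2241 UMIs in 1859 cells of KO_DMSO and 8885 UMIs in 4628 cells of WT_DMSO. That amounted to 56.3 CPM (54.1 to 58.5) in WT_GW5074, 64.3 CPM (61.7 to 67.1) in KO_DMSO and 227 CPM (222 to 232) in WT_DMSO. The WT_DMSO library stood apart, and the other two were within 1.5-fold of each other. Neutrophils supplied 0.978% of the Klhl6 UMIs of WT_GW5074 and 1.87% of those of KO_DMSO, against 42.3% of those of WT_DMSO.

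Klhl6 was at its highest in the neutrophils of WT_DMSO. These short-lived granulocytes, the first cells to enter injured tissue, held 133 CPM (85.8 to 196) in WT_GW5074, 221 CPM (159 to 299) in KO_DMSO and 1231 CPM (1192 to 1271) in WT_DMSO. The counts behind these levels were 25 UMIs in 152 cells, 42 UMIs in 225 cells and 3757 UMIs in 2961 cells, at median depths of 649, 616 and 667 UMIs per cell. Klhl6 was thus 9.28-fold lower in WT_GW5074 (6.28 to 14.4) and 5.57-fold lower in KO_DMSO (4.11 to 7.74) than in WT_DMSO. Only 14 of the 9435 genes compared had a lower ratio than Klhl6 in WT_GW5074 neutrophils, and 75 of 9334 in KO_DMSO neutrophils. Under a stricter filter on cells, with minimum 500 genes and maximum 10% mitochondrial UMIs, the KO_DMSO level was 119 CPM.

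The difference in neutrophils lay in the number of cells with Klhl6 as well as in the number of transcripts per cell. A Klhl6 UMI was present in 12.5% of WT_GW5074 neutrophils (7.70 to 18.8), in 12.0% of KO_DMSO neutrophils (8.06 to 17.0) and in 57.4% of WT_DMSO neutrophils (55.6 to 59.2). With every cell thinned to 500 UMIs the shares were 7.89%, 9.78% and 45.1%. No WT_GW5074 neutrophil held more than 2 Klhl6 UMIs and no KO_DMSO neutrophil more than 4, whereas WT_DMSO neutrophils held up to 13, and 4.59% of them held 5 or more. Migratory dendritic cells, the class with the least Klhl6, had a UMI in 0.474%, 0.345% and 1.64% of cells at the same thinned depth, and no class known to lack the gene was large enough to serve as a measure of free RNA.

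**Figure D1:**
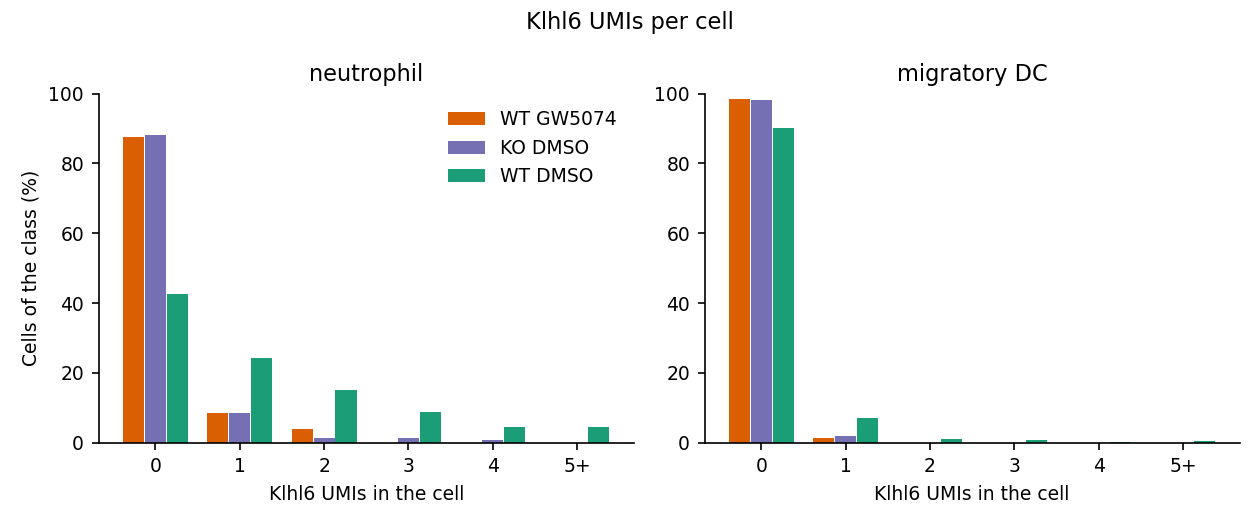
Share of cells (%, vertical axis, from 0) by the number of Klhl6 UMIs in the cell (horizontal axis), in neutrophils (left) and migratory dendritic cells (right) of WT_GW5074, KO_DMSO and WT_DMSO. Cells without a Klhl6 UMI made up 87.5% of WT_GW5074, 88.0% of KO_DMSO and 42.6% of WT_DMSO neutrophils, and over 90% of migratory dendritic cells in each library.

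When neutrophils were divided by clustering that left Klhl6 out, at a Leiden resolution of 2, they formed a cluster led by S100a9, S100a8, Il1r2 and Stfa2l1 and another led by S100a9, Hdc, Ccl3 and Mmp9. Nearly all cells of the first came from WT_DMSO: 15 were from WT_GW5074, 30 from KO_DMSO and 2694 from WT_DMSO. Klhl6 was not found in the 15 WT_GW5074 cells, which allows a level of up to 339 CPM, and stood at 206 CPM in KO_DMSO (56.2 to 528) and 1811 CPM in WT_DMSO (1754 to 1870). In the other cluster, with 109, 237 and 369 cells, Klhl6 stood at 204 CPM (117 to 332), 235 CPM (166 to 322) and 498 CPM (417 to 591). Within it the difference was smaller, 2.44-fold lower in WT_GW5074 (1.45 to 4.39) and 2.12-fold lower in KO_DMSO (1.47 to 3.13). In WT_DMSO the cluster led by Il1r2, the decoy receptor for interleukin 1, and Stfa2l1, a stefin, had the higher Klhl6 level, while in KO_DMSO the intervals of the clusters overlapped.

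Within WT_DMSO neutrophils Klhl6 stood at 999 CPM (688 to 1403) in the 36 cells with 1 UMI of S100a8 or S100a9, at 1365 CPM (1147 to 1611) with 2 to 3, at 1181 CPM (1045 to 1329) with 4 to 9 and at 1236 CPM (1194 to 1279) in the 2571 cells with 10 or more. The intervals of all 4 strata overlapped, while the share of cells with Klhl6 was 38.9% in the lowest stratum and 55.7% to 61.7% in the others. Per 1000 S100a8 and S100a9 UMIs, neutrophils held 7.00 Klhl6 UMIs in WT_GW5074, 7.09 in KO_DMSO and 28.8 in WT_DMSO. The summed level of the 10 neutrophil markers in this class was 21718 CPM in WT_GW5074, 35951 CPM in KO_DMSO and 47309 CPM in WT_DMSO.

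B cells, the lineage in which KLHL6 is best known, held 145 CPM (66.5 to 276; 9 UMIs in 60 cells) in WT_GW5074 and 281 CPM (232 to 338; 113 UMIs in 251 cells) in WT_DMSO, while KO_DMSO had 42 gated B cells, under the minimum of 50. The B cell cluster, which is larger, held 128 CPM (71.6 to 211), 151 CPM (82.7 to 254) and 275 CPM (237 to 318) in WT_GW5074, KO_DMSO and WT_DMSO. B cells of WT_DMSO carried 4627 CPM of S100a8 and S100a9, and the cells among them without such a UMI held 182 CPM of Klhl6 (120 to 265). The corresponding WT_GW5074 cells held 136 CPM (49.95 to 296), and the interval of their ratio included 1 (0.541 to 3.96-fold lower).

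T cells held 149 CPM (97.0 to 218) in WT_GW5074, 167 CPM (124 to 219) in KO_DMSO and 207 CPM (161 to 261) in WT_DMSO. All 3 intervals overlapped, and both ratios to WT_DMSO had intervals that included 1 (0.877 to 2.28-fold and 0.853 to 1.82-fold lower). Among T cells without a UMI of S100a8 or S100a9 the levels were 155, 168 and 162 CPM. The T cell cluster, with 609 WT_DMSO cells against 235 in the gate, gave a larger difference. It held 109 CPM in WT_GW5074, 128 CPM in KO_DMSO and 228 CPM in WT_DMSO. That cluster was mixed: of its 1774 cells over all libraries, 644 were gated as T cells, 652 had no gate and 254 were gated as monocyte-derived macrophages. Its level is therefore not that of T cells alone.

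Monocytes, the blood-borne precursors of macrophages, held 77.4 CPM (63.5 to 93.6) in WT_GW5074, 102 CPM (80.2 to 127) in KO_DMSO and 272 CPM (243 to 303) in WT_DMSO. Klhl6 was 3.51-fold lower in WT_GW5074 (2.81 to 4.404) and 2.67-fold lower in KO_DMSO (2.08 to 3.47). This difference remained among monocytes without a UMI of S100a8 or S100a9, which held 87.1 CPM (68.5 to 109), 82.9 CPM (57.4 to 116) and 280 CPM (224 to 347). The cluster led by Vcan, a matrix proteoglycan gene of monocytes, held 56 WT_GW5074, 11 KO_DMSO and 306 WT_DMSO cells. Its level was 41.1 CPM from 3 UMIs in WT_GW5074 and 324 CPM (290 to 360) in WT_DMSO, and the 0 UMIs of the 11 KO_DMSO cells allow up to 132 CPM.

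In macrophages the ratios to WT_DMSO were smaller than in neutrophils and monocytes. Resident alveolar macrophages, the long-lived surfactant-clearing cells of the airspace, held 60.4 CPM (52.6 to 69.0) in WT_GW5074, 76.5 CPM (68.3 to 85.4) in KO_DMSO and 107 CPM (92.4 to 123) in WT_DMSO. Monocyte-derived macrophages, which enter the airspace after injury, held 54.0 CPM (50.7 to 57.5), 61.6 CPM (57.3 to 66.2) and 132 CPM (124 to 139). Klhl6 in them was 2.44-fold lower in WT_GW5074 (2.24 to 2.65) and 2.14-fold lower in KO_DMSO (1.95 to 2.34). Among monocyte-derived macrophages without a UMI of S100a8 or S100a9 the levels were 53.2, 61.2 and 68.6 CPM, and the differences shrank to 1.29-fold (1.04 to 1.58) and 1.12-fold (0.901 to 1.39). Resident alveolar macrophages without such a UMI held 60.0, 80.1 and 101 CPM, near the levels over all cells of their class. Classes drawn from clusters gave 76.6 CPM for WT_DMSO monocyte-derived macrophages. A cluster left unnamed, in which neutrophil genes were joined by C1qc of macrophages, held 349 CPM in its 814 WT_DMSO cells, against 75.9 CPM in 196 WT_GW5074 and 92.9 CPM in 112 KO_DMSO cells.

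**Figure D2:**
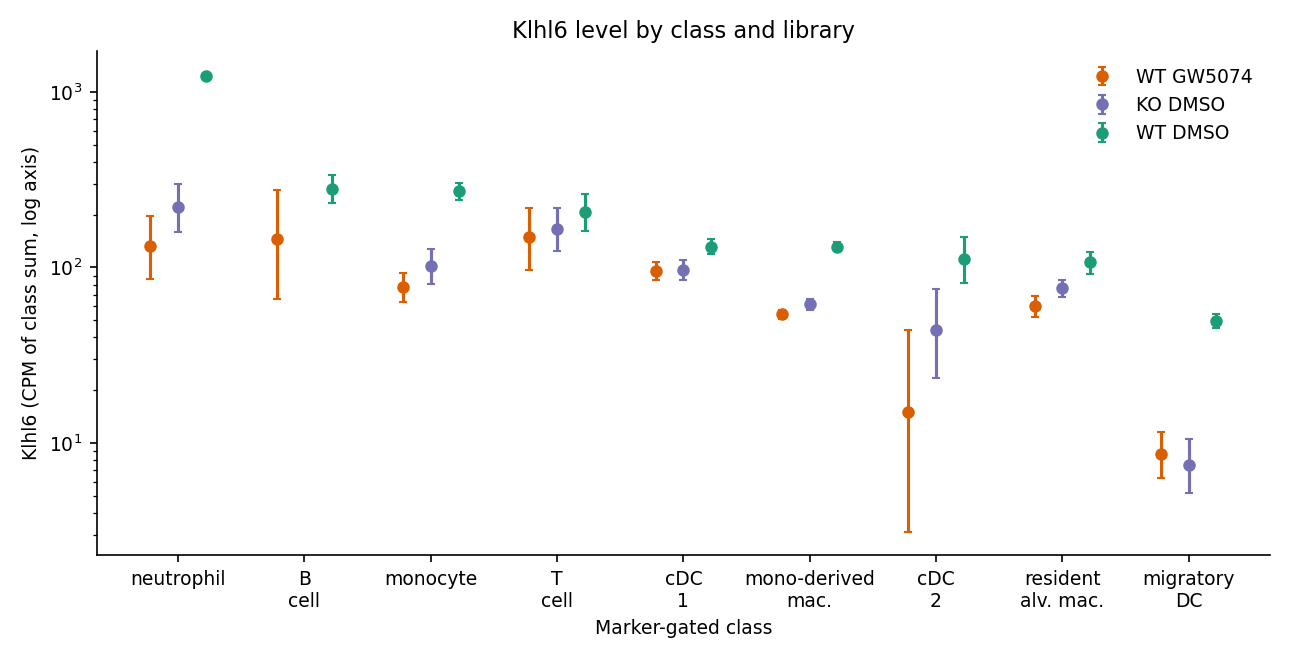
Klhl6 level (CPM of the class sum, log axis) in each marker-gated class for WT_GW5074, KO_DMSO and WT_DMSO, with exact 95% Poisson intervals as bars. WT_DMSO neutrophils stand above all other points at 1231 CPM, and the migratory dendritic cells of WT_GW5074 and KO_DMSO are the lowest, at 8.67 and 7.54 CPM.

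Dendritic cells, which take up antigen and carry it to T cells, differed among themselves. Type 1 conventional dendritic cells, specialised in presenting antigen of dead cells, held 95.5 CPM (84.4 to 108) in WT_GW5074, 97.1 CPM (85.1 to 110) in KO_DMSO and 132 CPM (119 to 145) in WT_DMSO. These were among the nearest levels between the libraries, 1.38-fold (1.18 to 1.61) and 1.36-fold (1.15 to 1.60) lower, and they stood at 96.3, 96.8 and 127 CPM in cells without a UMI of S100a8 or S100a9. Type 2 conventional dendritic cells held 15.01 CPM (3.10 to 43.9) in WT_GW5074, 43.8 CPM (23.3 to 75.0) in KO_DMSO and 112 CPM (81.1 to 150) in WT_DMSO, from 3, 13 and 44 UMIs. The ratio of the type 2 cells was 7.43-fold lower in WT_GW5074 with an interval from 2.38 to 37.4. The type 2 cluster, with 446, 274 and 490 cells, gave 44.1 CPM (31.8 to 59.7), 51.9 CPM (37.1 to 70.6) and 161 CPM (143 to 181).

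Migratory dendritic cells, mature cells that follow the receptor CCR7 toward lymph nodes, had the least Klhl6 of the classes compared in every library. They held 8.67 CPM (6.32 to 11.6) in WT_GW5074, 7.54 CPM (5.22 to 10.5) in KO_DMSO and 49.5 CPM (45.1 to 54.1) in WT_DMSO. The counts were 45 UMIs in 2741 cells, 34 UMIs in 1740 cells and 483 UMIs in 3052 cells. These values chose the gene: Klhl6 was 5.70-fold lower in WT_GW5074 (4.20 to 7.92) and 6.56-fold lower in KO_DMSO (4.63 to 9.59). Of all genes compared in these cells, 15 of 7945 in WT_GW5074 and 17 of 7832 in KO_DMSO had a lower ratio than Klhl6. Without the 10% of cells with the highest doublet scores the level was 3.80 CPM in WT_GW5074 and 28.4 CPM in WT_DMSO, and with classes drawn from clusters it was 3.603 CPM in WT_GW5074. The gate held the markers it names, with Ccr7 at 1994, 1860 and 1780 CPM and the actin bundler Fscn1 at 2345, 2446 and 2362 CPM, and 93.2%, 94.2% and 96.2% of its cells lay in clusters of migratory dendritic cells.

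A Klhl6 UMI was present in 1.496% of WT_GW5074 (1.08 to 2.02), 1.90% of KO_DMSO (1.31 to 2.65) and 9.80% of WT_DMSO migratory dendritic cells (8.77 to 10.9), at median depths of 1656, 2488 and 2874 UMIs. Thinned to 500 UMIs, the shares were 0.474% (0.253 to 0.810), 0.345% (0.127 to 0.749) and 1.64% (1.22 to 2.15). Thinned to 1000 UMIs, which left out 390, 56 and 130 shallower cells, they were 0.766%, 0.772% and 4.07%. The order of WT_DMSO above both others was the same at each depth, while the order of WT_GW5074 and KO_DMSO was not.

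The neutrophil transcripts moved with Klhl6 in these cells. S100a8 and S100a9 together stood at 113 CPM in WT_GW5074, 54.5 CPM in KO_DMSO and 936 CPM in WT_DMSO migratory dendritic cells, and the 10 neutrophil markers summed to 152, 85.6 and 1057 CPM. Of these markers 8, 9 and 10 had a UMI. Ly6g and Retnlg were at 0 in WT_GW5074, and Ly6g was at 0 in KO_DMSO. Among WT_DMSO cells Klhl6 stood at 22.8 CPM (18.2 to 28.03) with no UMI of S100a8 or S100a9, at 27.4 CPM (21.8 to 33.9) with 1, at 35.6 CPM (27.4 to 45.4) with 2 to 3, at 135 CPM (99.3 to 180) with 4 to 9 and at 293 CPM (253 to 336) with 10 or more. The 162 cells of the top stratum, 5.31% of the class, carried 200 of its 483 Klhl6 UMIs.

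Klhl6 was also higher in WT_DMSO among the migratory dendritic cells without any UMI of S100a8 or S100a9. They held 6.0 CPM (3.99 to 8.67) in 2554 WT_GW5074 cells, 6.30 CPM (4.11 to 9.23) in 1623 KO_DMSO cells and 22.8 CPM (18.2 to 28.03) in 1378 WT_DMSO cells. The difference was 3.79-fold (2.45 to 6.03) in WT_GW5074 and 3.61-fold (2.31 to 5.83) in KO_DMSO, smaller than over all cells of the class. In cells with 1 such UMI the level was 33.0 CPM (17.6 to 56.5) in 150 WT_GW5074 cells, 16.0 CPM (5.18 to 37.3) in 99 KO_DMSO cells and 27.4 CPM (21.8 to 33.9) in 956 WT_DMSO cells, and all 3 intervals overlapped. If the S100 transcripts of this class had brought Klhl6 in the ratio seen in each library's own neutrophils, that source would have given 0.793 CPM in WT_GW5074, 0.386 CPM in KO_DMSO and 27.0 CPM in WT_DMSO. The measured levels were 8.67, 7.54 and 49.5 CPM. Whether RNA from neutrophils takes part in the level of cells with no S100 transcript was not tested.

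**Figure D3:**
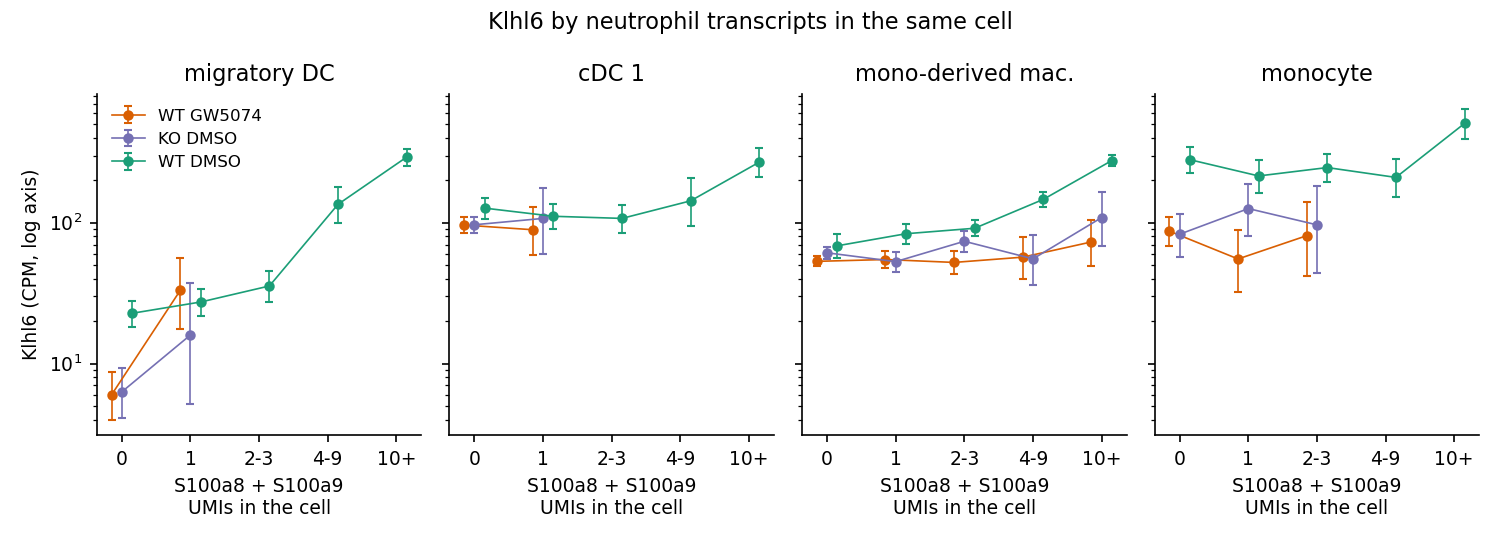
Klhl6 level (CPM, log axis, exact 95% Poisson intervals) in cells grouped by their UMIs of S100a8 and S100a9 (horizontal axis) in migratory dendritic cells, type 1 conventional dendritic cells, monocyte-derived macrophages and monocytes of WT_GW5074, KO_DMSO and WT_DMSO, for strata with enough cells and UMIs. In WT_DMSO migratory dendritic cells the level runs from 22.8 CPM without such a UMI to 293 CPM with 10 or more, and in the cells without one the libraries still differ.

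Clustering without Klhl6 divided the migratory dendritic cells into 3 states, named here by the markers Clu, Il12b and Glis3. In the Clu state Klhl6 stood at 4.67 CPM (2.41 to 8.15) in WT_GW5074, 6.17 CPM (3.45 to 10.2) in KO_DMSO and 30.6 CPM (24.6 to 37.7) in WT_DMSO. In the Il12b state, whose marker encodes the shared subunit of interleukins 12 and 23, it stood at 2.39 CPM (0.775 to 5.57), 4.35 CPM (1.88 to 8.58) and 34.1 CPM (27.5 to 41.8). The Glis3 state was nearly confined to WT_DMSO, with 29 WT_GW5074, 9 KO_DMSO and 1425 WT_DMSO cells, and held 95.2 CPM (86.1 to 105) in WT_DMSO. Its few WT_GW5074 cells had no Klhl6 UMI, which allows up to 57.6 CPM, and its KO_DMSO cells had 1.

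The high level of the Glis3 state rested on cells with neutrophil transcripts. That state held 2657 CPM of S100a8 and S100a9 in WT_DMSO, and 14.8% of its cells had 10 or more such UMIs, against 1.92% in the Clu and 3.36% in the Il12b state of that library. In cells without such a UMI, Klhl6 stood at 28.7 CPM in the Glis3 state of WT_DMSO, at 4.12, 6.11 and 19.9 CPM in the Clu state and at 2.03, 4.07 and 18.4 CPM in the Il12b state of WT_GW5074, KO_DMSO and WT_DMSO. At a resolution of 2 the Glis3 state of WT_DMSO held 1203 cells with 330 CPM of S100 transcripts, and its Klhl6 was 29.4 CPM (23.9 to 35.7). A separate cluster of 269 WT_DMSO cells then combined migratory markers with S100a9, at 11150 CPM of S100 transcripts, a median doublet score of 0.188 and 343 CPM of Klhl6. The Il12b state stood at 6.79, 5.33 and 49.4 CPM at that resolution. Leaving out the Glis3 state, the difference of the class was 4.29-fold in WT_GW5074 and 5.11-fold in KO_DMSO.

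**Figure D4:**
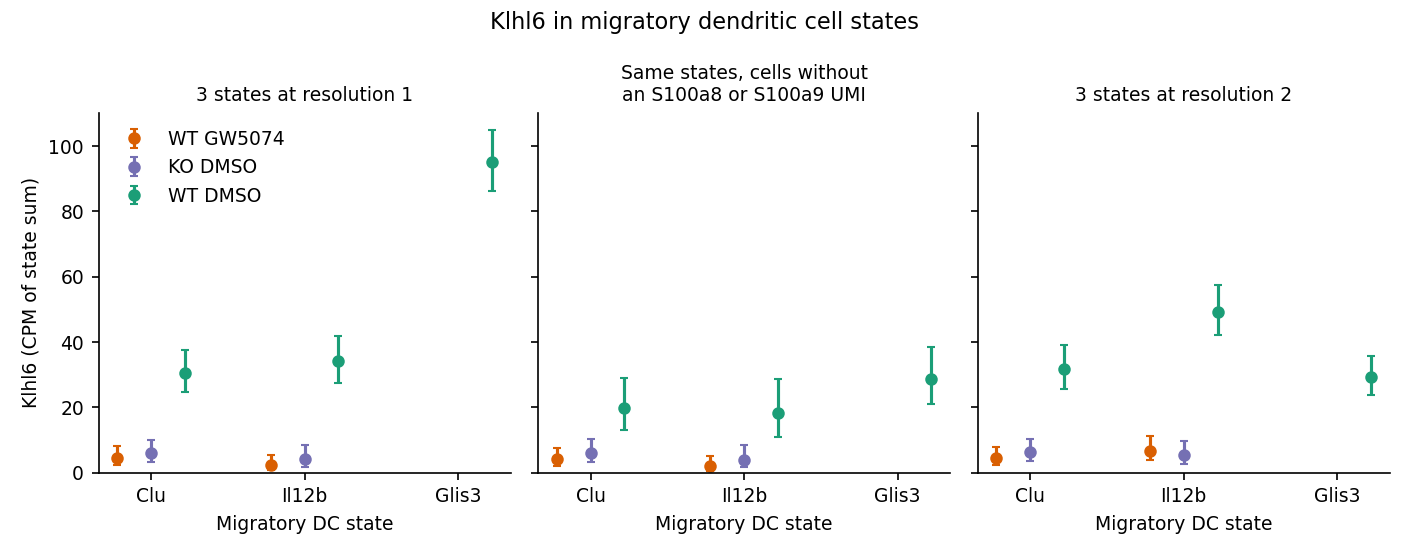
Klhl6 level (CPM of the state sum, linear axis from 0, exact 95% Poisson intervals) in the Clu, Il12b and Glis3 states of migratory dendritic cells in WT_GW5074, KO_DMSO and WT_DMSO, for all cells at a resolution of 1 (left), for cells without a UMI of S100a8 or S100a9 (middle) and at a resolution of 2 (right). States with under 50 cells in a library are not drawn. The Glis3 state of WT_DMSO stands at 95.2 CPM on the left, at 28.7 CPM in the middle and at 29.4 CPM on the right.

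The order of classes by Klhl6 was not the same in the 3 libraries. In WT_GW5074 it ran from T cells through B cells, neutrophils, type 1 dendritic cells, monocytes, resident and monocyte-derived macrophages to type 2 and migratory dendritic cells, and each neighbouring pair had overlapping intervals except monocyte-derived macrophages and type 2 dendritic cells. In KO_DMSO it ran from neutrophils through T cells, monocytes, type 1 dendritic cells, resident and monocyte-derived macrophages and type 2 dendritic cells to migratory dendritic cells. There the neighbours without overlap were resident and monocyte-derived macrophages, and type 2 and migratory dendritic cells. In WT_DMSO it ran from neutrophils through B cells, monocytes, T cells, type 1 dendritic cells, monocyte-derived macrophages, type 2 dendritic cells and resident macrophages to migratory dendritic cells. Its gaps without overlap were those below neutrophils, between T cells and type 1 dendritic cells, and above migratory dendritic cells.

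**Figure D5:**
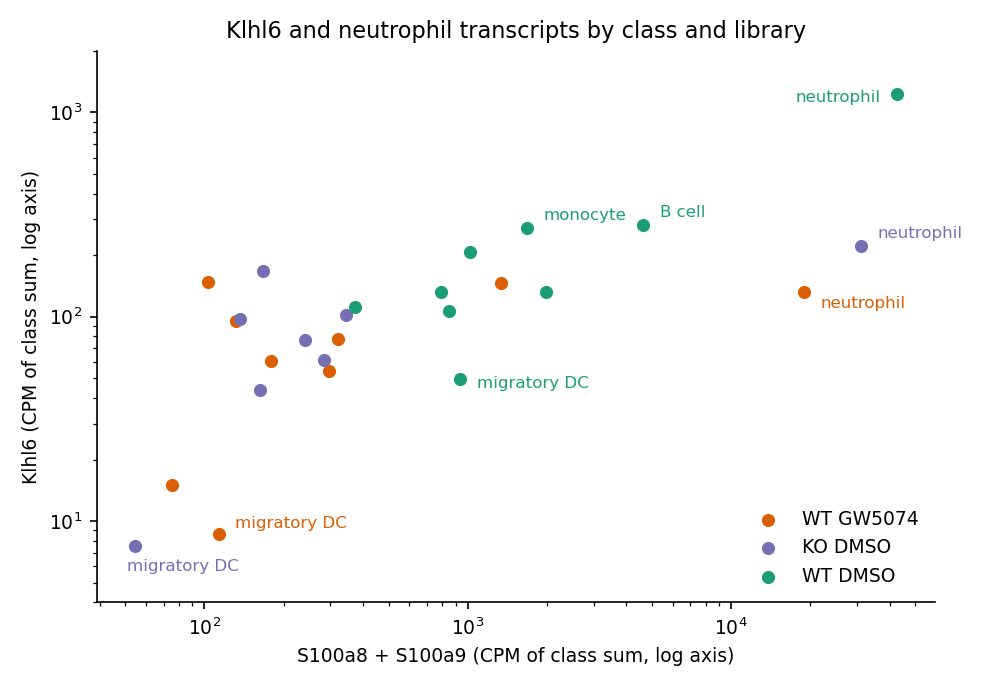
Klhl6 level against the summed level of S100a8 and S100a9 (both in CPM of the class sum, log axes), 1 point per class and library for WT_GW5074, KO_DMSO and WT_DMSO. Neutrophils lie far to the right in each library, at 18944, 31188 and 42681 CPM of S100 transcripts, but only those of WT_DMSO exceed 1000 CPM of Klhl6. Within each other class, the WT_DMSO point lies to the right of the points drawn for the same class in the other libraries.

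Among its relatives Klhl6 changed rank with the cells. In WT_DMSO neutrophils none of the 41 other KLHL-type genes in the files exceeded it, the next being Klhl2 at 362 CPM and Klhl24 at 213 CPM, and only 62 of 15625 genes detected stood above it. In WT_GW5074 and KO_DMSO neutrophils Klhl2 exceeded it, at 202 and 253 CPM. In T cells none exceeded Klhl6 in any library, with Kbtbd11 the next at 137, 71.9 and 127 CPM. In migratory dendritic cells, by contrast, 19 relatives exceeded it in WT_GW5074, 16 in KO_DMSO and 4 in WT_DMSO, led by Klhl5 at 99.997, 88.9 and 90.3 CPM.

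The relatives did not share the size of the Klhl6 difference in migratory dendritic cells. A gene was counted as lower or higher when it differed from WT_DMSO by at least 1.5-fold with an interval that excluded 1, among genes at 10 CPM or more in either library. In WT_GW5074, where 4.44% of all genes tested were lower and 4.12% higher, 1 of 18 relatives was lower and none higher. It was Kbtbd11, at 5.39 CPM in WT_GW5074 and 13.9 CPM in WT_DMSO. In KO_DMSO, where 15.4% of all genes were lower, 3.87% were higher and the median log2 ratio of all genes was −0.16, 6 of 18 were lower, with a median of −0.31. These included Kbtbd11, at 3.55 CPM, and Ivns1abp, an actin-binding relative, at 44.8 CPM in KO_DMSO against 89.5 CPM in WT_DMSO. Keap1, the adaptor that holds the oxidative stress factor NRF2 in check, stood at 42.6, 39.2 and 57.8 CPM and passed in neither. Among genes at 50 CPM or more, 2.16% were lower and 2.67% higher in WT_GW5074, and 8.01% lower and 3.7% higher in KO_DMSO.

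The ligase that KLHL6 works with was near even. Cul3, which encodes the scaffold Cullin-3, stood at 85.7, 88.0 and 88.1 CPM in migratory dendritic cells of WT_GW5074, KO_DMSO and WT_DMSO, while Klhl6 stood at 8.67, 7.54 and 49.5 CPM. Its RING partner Rbx1 stood at 213, 233 and 239 CPM, and Nedd8, whose product activates cullins, at 198, 231 and 219 CPM. Of the ligase machinery, 1 of 18 genes was higher and none lower in WT_GW5074, beside 4.12% and 4.44% of all genes. It was the neddylation cofactor Dcun1d3 at 13.3 against 6.65 CPM. In KO_DMSO 1 of 17 was lower and 1 higher, beside 15.4% and 3.87% of all genes. The lower was Uba3 of the NEDD8-activating enzyme at 9.31 against 16.3 CPM. The higher was Cops6 of the COP9 signalosome at 26.6 against 14.1 CPM.

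Rc3h2, which encodes the known substrate roquin-2, stood at 61.8, 52.8 and 64.1 CPM, its paralogue Rc3h1 at 67.0, 66.9 and 63.2 CPM and Tnfaip3 at 123, 92.0 and 119 CPM in migratory dendritic cells of WT_GW5074, KO_DMSO and WT_DMSO. None of the 9 genes of this axis passed in WT_GW5074. In KO_DMSO, where 15.4% of all genes were lower, 2 of 9 were, the NF-kappaB regulator Nfkbiz at 76.3 against 122 CPM and the T cell costimulator Icos at 10.4 against 18.3 CPM. The median log2 ratio of this axis was −0.28 in KO_DMSO, beside −0.16 over all genes. Nfkbia, an inhibitor of NF-kappaB, stood at 444, 629 and 432 CPM in WT_GW5074, KO_DMSO and WT_DMSO, and its 1.46-fold ratio in KO_DMSO was under the 1.5-fold threshold. Of the genes of B cell receptor signalling, 1 of 18 was lower and 2 higher in WT_GW5074, beside 4.44% and 4.12% of all genes, and 4 of 18 were lower in KO_DMSO, beside 15.4% of all genes. Inpp5d, the inhibitory lipid phosphatase SHIP1, was lower in both, at 135 CPM in WT_GW5074 and 95.1 CPM in KO_DMSO, against 213 CPM in WT_DMSO. Blnk, the adaptor next to the receptor, stood at 28.3, 18.4 and 13.9 CPM and was higher in WT_GW5074 but passed in neither direction in KO_DMSO.

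Genes induced by glucocorticoids were lower as a list in migratory dendritic cells and in most other classes. In WT_GW5074 migratory dendritic cells 7 of 11 were lower and 1 higher, beside 4.44% and 4.12% of all genes. The median log2 ratio was −0.66, beside −0.01 over all genes. In KO_DMSO 8 of 11 were lower and none higher, beside 15.4% and 3.87% of all genes. The median there was −0.95, beside −0.16 over all genes. Ddit4, an inhibitor of the growth kinase mTORC1, stood at 7.32 CPM in WT_GW5074, 12.0 CPM in KO_DMSO and 58.1 CPM in WT_DMSO. Fkbp5, a chaperone of the glucocorticoid receptor, stood at 21.4, 29.3 and 56.7 CPM. Il1r2, at 7.51, 3.77 and 57.8 CPM, is also 1 of the 10 neutrophil markers. Sgk1, a kinase of the same list, was higher in WT_GW5074, at 62.2, 39.2 and 31.2 CPM. Whether neutrophil RNA takes part in these levels was not tested. In the other classes the list's median was also below that of all genes, except in KO_DMSO resident alveolar macrophages (0.19 beside −0.01). In T cells, whose Klhl6 ratios had intervals that included 1, it was −0.65 in WT_GW5074 and −0.67 in KO_DMSO. The medians of all genes there were 0.09 and −0.17.

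The same list was lower beside Klhl6 in neutrophils. In WT_GW5074 neutrophils, where 5.48% of all genes were lower and 7.03% higher, 8 of its 12 genes were lower and 1 higher, and in KO_DMSO neutrophils, where the shares were 5.38% and 6.03%, 7 of 12 were lower and none higher. Fkbp5 stood at 58.4 CPM in WT_GW5074, 121 CPM in KO_DMSO and 395 CPM in WT_DMSO neutrophils, and Tsc22d3, which encodes the glucocorticoid-induced leucine zipper protein, at 143, 279 and 541 CPM. Of the KLHL-type genes 2 of 23 were lower in WT_GW5074 neutrophils, Klhl2 and Klhl24, and 1 of 23 in KO_DMSO neutrophils. Cul3, at 138, 132 and 129 CPM, and Rc3h1, at 127, 158 and 144 CPM, passed in neither, and Tnfaip3 was lower in both, at 53.1, 52.6 and 122 CPM.

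Immediate early and heat shock genes can respond to handling of cells, and whether handling took part in the values here was not tested. In WT_GW5074 migratory dendritic cells 5 of 14 were lower and 1 higher, beside 4.44% and 4.12% of all genes, with a median log2 ratio of −0.27. In KO_DMSO 4 of 14 were lower and 3 higher, beside 15.4% and 3.87% of all genes, with a median of −0.24. Egr1 stood at 19.1, 10.4 and 38.2 CPM in WT_GW5074, KO_DMSO and WT_DMSO and the chaperone Hspa8 at 1266, 1621 and 975 CPM. Of the Dectin-1 signalling genes none of 11 passed in WT_GW5074, and in KO_DMSO only Clec7a itself was lower, at 0.887 CPM against 109 CPM. Of the maturation genes, 1 of 14 was lower and 1 higher in WT_GW5074, and 1 of 14 was higher in KO_DMSO. The higher gene was Il12b in both, at 412 and 586 CPM against 265 CPM, and the costimulator Cd86 was the lower, at 216 CPM in WT_GW5074 against 328 CPM in WT_DMSO.

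Within 500 kb of Klhl6 on chromosome 16 lie 14 other protein-coding genes of the files, and 6 of them are olfactory receptors at 0 in both classes. Klhl24, the nearest and a relative, stood at 49.7, 45.2 and 47.7 CPM in migratory dendritic cells of WT_GW5074, KO_DMSO and WT_DMSO, and at 95.5, 179 and 213 CPM in neutrophils. On the other side B3gnt5, a glycosyltransferase gene, stood at 33.3, 23.5 and 41.3 CPM in migratory dendritic cells. None of the 5 neighbours tested there was counted as lower in WT_GW5074, where 4.44% of all genes were. In KO_DMSO, where 15.4% of all genes were lower, 2 of 5 were, B3gnt5 by 1.76-fold and Yeats2 by 1.57-fold, against 6.56-fold for Klhl6.

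Across 24 sums of 8 classes in 3 libraries, the genes whose log2 levels ran most like Klhl6 among 6602 genes were Mrpl57 (Pearson r = 0.89), Smim4 (0.84), Fgfr1op2, Fkbp5, Wdfy1 and Tmem179b (all 0.83), and Mindy3, Ibtk, Slfn2 and Srp9 (all 0.81). These points share libraries, pools and the neutrophil sums, so that r is a description. They also include the migratory dendritic cell sums that chose Klhl6. Mrpl57, a gene of the mitochondrial ribosome, ran over a far smaller range than Klhl6, at 69.0, 116 and 164 CPM in neutrophils and 36.8, 35.9 and 56.3 CPM in migratory dendritic cells of WT_GW5074, KO_DMSO and WT_DMSO. Mindy3, a deubiquitinase gene, stood at 138, 147 and 397 CPM in neutrophils and 35.8, 33.5 and 49.2 CPM in migratory dendritic cells. Without the neutrophil sums, 4 of these 10 genes stayed among the 10 most alike, with Mrpl57 at r = 0.93, and with the 8 WT_DMSO sums alone none did.

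The 10 genes with the highest odds of being found in the same cell as Klhl6 include the neutrophil markers S100a9 and S100a8. The others are not on that marker list, which does not make their level in neutrophils low. Fkbp5 and Mindy3 stood at 395 and 397 CPM in WT_DMSO neutrophils, against 56.7 and 49.2 CPM in migratory dendritic cells of that library. Chil3 was present in 84.1% of WT_DMSO neutrophils with Klhl6 and 71.6% of those without, at 500 UMIs. Neutrophil levels of the remaining genes are not given here. In cells thinned to 1000 UMIs, 1875 of 25833 had Klhl6. Shallower cells were left out, among them 95 of 152 WT_GW5074, 197 of 225 KO_DMSO and 2335 of 2961 WT_DMSO neutrophils. The odds ratios of co-detection within class and library were highest for S100a9 (2.52), Malat1 (2.40), S100a8 (1.76), Fkbp5 (1.65), Chil3 (1.62), Rcsd1 (1.52), Egr1 (1.5), Alox5 (1.48), Herc4 (1.47) and Mindy3 (1.45). At 500 UMIs only S100a9, S100a8 and Chil3 stayed among the 10, joined by Slk (1.76), Sirpb1c (1.68) and Il1r2 (1.64) among others. At 1000 UMIs, pooled over classes and libraries, whose makeup differs, S100a9 was present in 29.9% of cells with Klhl6 and 6.23% of cells without. Fkbp5 was present in 15.9% and 6.42%. The lowest ratios were those of Ankrd33b (0.52), Bcl2l14 (0.61), Pea15a (0.62), Apbb2 (0.62) and Fscn1 (0.63). Fscn1, the marker of migratory dendritic cells, was present in 8.21% of cells with Klhl6 and 24.9% of cells without, pooled in the same way.

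The companions of Klhl6 depended on the cells. In WT_DMSO migratory dendritic cells, 119 of 2922 had Klhl6 at 1000 UMIs, and after Malat1 and Actb, present in all of them, its companions included Chil3 (odds ratio 7.83), S100a9 (6.66), Txnip (4.98), S100a8 (4.96), Il1r2 (4.93) and Tpt1 (3.59). S100a9 was present in 48.7% of the cells with Klhl6 and 12.5% of those without. Within WT_DMSO neutrophils, 1336 of 2961 cells had Klhl6 at 500 UMIs, and its companions were Bcl2l15 (2.73), Ptpn22 (2.21), Chil3 (2.11), S100a8 and Slk (both 2.1), Sirpb1b (1.92), Lonp2 (1.92), Sirpb1c (1.89), Mindy3 (1.83) and Ube3c (1.76). Ptpn22 encodes a phosphatase that dampens immune receptor signalling, and Bcl2l15 a member of the BCL2 family. The lowest ratios there were those of Plbd1 (0.43), the MHC class II gene H2-Eb1 (0.49), Ifi30 (0.51), Ccl6 (0.52) and Cd300a (0.53).

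Outside neutrophils and outside WT_DMSO none of the 10 neutrophil markers was among the 10 leading companions of Klhl6. Only genes in at least 5% of cells with or without Klhl6 were ranked, so a marker rarer than that could not appear. In the WT_GW5074 and KO_DMSO cells of the other classes, 925 of 18465 had Klhl6 at 1000 UMIs, and after Malat1 (2.78) the highest odds ratios were those of Eif2ak2 (1.59), Plxnd1 (1.58), Slc29a1 (1.44), Mydgf (1.44) and Psap (1.43). Pooled over these classes and libraries, whose makeup differs, Psap, a lysosomal protein gene, was present in 96.0% of cells with Klhl6 and 87.7% of cells without. The lowest ratio was that of Traf1 (0.56), a signalling adaptor of mature dendritic cells.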

How the data were processed

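Per the labels, cells of 3 pooled lavages were sorted and sequenced from the 3′ end; the extraction protocol names a SeekOne chip while a description field names another droplet platform. The deposited files hold raw UMI counts per gene and barcode, made with Cell Ranger 2.1.1 on mm10, per the submitters' processing notes. Every deposited barcode had at least 500 UMIs. Cells under 200 genes or over 20% mitochondrial UMIs were dropped (17, 36 and 50 from WT_GW5074, KO_DMSO and WT_DMSO).

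A cell entered the class with the largest share of its markers detected, given at least 2 detected markers and a lead of 0.1. Counts were summed per class and library and given as CPM with exact Poisson intervals, ratios with exact conditional binomial intervals and shares with exact Clopper-Pearson intervals, all at 95%. A count of 0 allows up to 3 counts. Cells were thinned to 500 or 1000 UMIs for shares. Leiden clusters (resolution 1; 2000 variable genes, 30 components, without Klhl6 and Clec7a) were named where at least 3 of a class's markers were among the 30 leading genes. Doublets were scored, with 756 cells called (1.76%); none was removed in the values reported. Likeness used log2(CPM + 10), and co-detection a Mantel-Haenszel odds ratio over genes in at least 5% of cells with or without Klhl6. Named genes are Klhl6, its 10 nearest genes, the 10 highest and 5 lowest companions, coding neighbours within 500 kb and each list's 2 highest and 2 lowest log2 ratios; others of the lists were named after their values were seen. A few named results are not reported here. The gene, its lists and the classes were chosen with earlier results of these data known. Alternatives were stricter gates and filters, clusters, other scalings, resolutions, pseudocounts, depths and doublet cuts. Scripts, tested on simulated data, used Python 3.11.15, scanpy 1.11.5, scipy 1.17.1 and igraph 0.11.9. With 1 library per group, no replicate spread was measured.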

Additional observations from a re-analysis of the deposited data

How the results depend on the processing

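The direction of Klhl6 in migratory dendritic cells was the same under every setting run. The log2 ratio of WT_GW5074 to WT_DMSO, −2.51 as reported, was −4.04 with classes from clusters, and that of KO_DMSO, −2.71 as reported, was −3.41. With settings added after the data were seen, it was −1.92 and −1.85 in cells without S100a8 or S100a9, and −3.37 in WT_GW5074 without clusters of high doublet score. At a resolution of 0.5 no Glis3 state was named, so the cluster named Clu was not the same set of cells. It held 2508 WT_DMSO cells, 8.25% of them with 10 or more S100a8 and S100a9 UMIs, against 1096 cells and 1.92% at a resolution of 1. The log2 ratios in that cluster were −3.81 in WT_GW5074 and −3.23 in KO_DMSO, against −2.71 and −2.31. The share of migratory dendritic cells with Klhl6, thinned to 500 UMIs, was 0.474%, 0.345% and 1.64% in WT_GW5074, KO_DMSO and WT_DMSO. It was 1.496%, 1.90% and 9.80% without thinning, 0.772% in KO_DMSO and 4.07% in WT_DMSO at 1000 UMIs, and 0.235% in WT_GW5074 and 1.05% in WT_DMSO without the 10% highest doublet scores. Of 143 recomputed levels in the 8 classes, 126 stayed within their counting interval, 17 moved and 7 moved over 1.5-fold, the furthest by 2.94-fold. Of the 10 genes most like Klhl6, 8 were shared with a pseudocount of 1 CPM, 4 without the neutrophil sums, a setting added after the data were seen, and 0 in WT_DMSO alone. Of the 10 companions, 3 were shared at 500 UMIs. With genes at 50 CPM or more the 9 lists held 7 lower and 3 higher members in WT_GW5074, against 15 and 6, and 11 and 2 in KO_DMSO, against 28 and 5. Over all genes the shares lower and higher were 2.16% and 2.67% in WT_GW5074, against 4.44% and 4.12% at 10 CPM. In KO_DMSO the shares were 8.01% and 3.7%, against 15.4% and 3.87%. Fewer genes are tested at 50 CPM; the cause of the other shifts was not tested.

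No paired analysis was possible because each group is 1 library. Depth limits type 2 dendritic cells and B cells most, with 3 and 9 Klhl6 UMIs in WT_GW5074. The spread between mice, and whether transcripts of lysed neutrophils entered other droplets, was not measured.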

Other observations

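Klhl6 in cells outside the named classes is given as values. Plasmacytoid dendritic cells, with 29, 21 and 30 cells in their cluster and thus under the minimum of 50, held 6, 6 and 18 Klhl6 UMIs in WT_GW5074, KO_DMSO and WT_DMSO, or 128 CPM (47.1 to 279), 129 CPM (47.3 to 280) and 282 CPM (167 to 446). A cluster led by the cell cycle genes Pclaf, Cenpf and Top2a held 70.1 CPM (59.0 to 82.6), 94.0 CPM (78.3 to 112) and 151 CPM (128 to 177). A cluster led by the interferon-induced genes Rsad2 and Ifit3 held 48.1 CPM (33.7 to 66.6), 57.3 CPM (38.4 to 82.3) and 155 CPM (108 to 215). A cluster led by Fstl1 and Gpnmb held 50.5 CPM (42.1 to 60.1), 54.7 CPM (44.9 to 66.0) and 69.0 CPM (53.9 to 87.1). Cells that no gate took held 64.1, 70.7 and 234 CPM. A cluster of migratory markers with a median doublet score of 0.262 held 37.7, 36.0 and 102 CPM, above the migratory dendritic cells of each library.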
